A study of Mus musculus with 8 samples.

Results

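Glycolysis and hypoxia response genes were followed in whole mouse corneas after dexamethasone eye drops. The set was a list of 36 gene symbols, covering transport of glucose and lactate, the enzymes of glycolysis, regulators of those enzymes, the hypoxia-inducible factors (HIFs) with their prolyl hydroxylases, and genes known to respond to low oxygen. A gene was tested when its mean log2 value over the 8 libraries was at least 3. This kept 35 of the 36, among 14715 tested rows of a table of 24918; Eno1, with values between 2.09 and 2.40, was below the minimum. Dexamethasone is a synthetic glucocorticoid. Both groups were wild-type male C57BL/6J mice adrenalectomized (ADX) at 8 weeks of age, so that both lacked their main own source of glucocorticoids, and given drops about 4 weeks later. The first group received dexamethasone drops and the second vehicle drops, and corneas were taken after 6 h. Each group had 4 libraries, each from a pool of 4 to 6 corneas. Whether corneas of 1 mouse or 1 batch were shared between pools is not given in the sources used here, so the p-values measure the spread between these pools. The question is whether and how these genes change when the cornea meets a glucocorticoid from drops.

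The values are the log2 normalized values deposited by the authors, and the labels give more than 40000000 reads per sample, with no figure for each library. Corneal markers were abundant, with the epithelial keratin gene Krt12 at 19.68 to 19.79 after dexamethasone and 19.73 to 19.77 after vehicle. The adult hemoglobin genes were listed at 0 in every library. Alas2, also on the red blood cell list, stood at 6.68 to 6.80 after dexamethasone and 6.74 to 6.77 after vehicle. The 0 of the hemoglobin genes therefore does not show that red blood cells were absent. The 6 skeletal muscle markers had means between 0.40 and 4.61. The log2 of their summed unlogged values was 5.80 to 5.84 in the dexamethasone libraries. Vehicle replicate 1 stood at 6.40 and the other vehicle libraries at 5.80 to 5.81. Myh4, a muscle myosin gene, was at most 3.03 in the dexamethasone libraries, and 4.37 in that vehicle library against at most 3.02 in the other 3. Without vehicle replicate 1, 2 members were called higher and 4 lower. In dexamethasone replicate 1 and vehicle replicate 3 the injury keratin gene Krt16 stood at 9.33 and 11.20, against 7.33 to 8.04 in the other 6 libraries. Results that rest on the 2 libraries with high Krt16 are given with and without them.

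Glycolysis splits glucose into pyruvate, and lactate dehydrogenase turns pyruvate into lactate, which monocarboxylate transporters carry out of the cell. In normal oxygen the prolyl hydroxylases of the Egln family mark HIF alpha subunits for degradation. In low oxygen the subunits persist, pair with Arnt and bind the motif ACGTG near many glycolytic and hypoxia response genes. The cornea has no blood vessels, takes much of its oxygen from the air and is known for active glycolysis in its epithelium. Dexamethasone acts through the glucocorticoid receptor, a transcription factor.

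The promoters of 2 members that rose and 2 that fell are shown because the HIF core motif occurs in both kinds. Each is the 250 bases before the gene's start, 5′ to 3′, from RefSeq on GRCm38.p6, with ACGTG or its reverse complement CACGT in capitals; the palindrome CACGTG counts as 2 overlapping matches. They lie at chr7:138909507-138909756 (minus strand) for Bnip3, chr11:54100674-54100923 (plus) for P4ha2, chr3:104638414-104638663 (plus) for Slc16a1 and chr7:46845554-46845803 (plus) for Ldha.
Bnip3: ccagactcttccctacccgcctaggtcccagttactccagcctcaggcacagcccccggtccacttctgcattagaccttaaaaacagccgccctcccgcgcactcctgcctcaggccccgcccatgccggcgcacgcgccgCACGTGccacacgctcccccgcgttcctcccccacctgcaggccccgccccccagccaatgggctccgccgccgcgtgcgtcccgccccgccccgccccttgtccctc
P4ha2: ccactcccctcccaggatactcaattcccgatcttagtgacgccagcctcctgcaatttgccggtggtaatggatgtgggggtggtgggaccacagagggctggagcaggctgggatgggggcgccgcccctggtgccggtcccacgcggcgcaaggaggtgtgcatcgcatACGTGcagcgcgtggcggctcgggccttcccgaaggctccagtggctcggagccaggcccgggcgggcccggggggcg
Slc16a1: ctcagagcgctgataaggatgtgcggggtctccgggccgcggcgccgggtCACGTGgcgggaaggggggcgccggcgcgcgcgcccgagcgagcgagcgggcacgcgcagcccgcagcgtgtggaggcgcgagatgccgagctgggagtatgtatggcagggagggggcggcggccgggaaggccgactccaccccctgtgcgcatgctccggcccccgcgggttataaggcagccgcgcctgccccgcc
Ldha: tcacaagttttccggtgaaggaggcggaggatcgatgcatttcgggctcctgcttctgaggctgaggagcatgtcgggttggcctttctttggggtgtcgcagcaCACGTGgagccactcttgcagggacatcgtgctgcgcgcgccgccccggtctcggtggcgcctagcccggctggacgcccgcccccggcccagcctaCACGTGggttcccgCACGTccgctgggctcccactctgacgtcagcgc

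Bnip3 held the palindrome 108 bases before its start, and Slc16a1 held it 200 bases before. Ldha held it 145 and 48 bases before the start shown, with a further match at 34 bases. Another listed start of Ldha had no match. P4ha2 had a match at 78 bases before its start. Beyond the printed bases, P4ha2 had a match 10 bases after its start and Slc16a1 had a match 20 bases after its start. Windows of 250 bases before to 50 after the start were searched on both strands for 32 of the 35 tested members; Bnip3l, Epas1 and Ndrg1 had no entry. The motif was in 23 of the 32 genes (71.88%), against 21.78% of 27025 genes in the table. The set was chosen as glycolysis and hypoxia response genes, so this excess is no finding of these data. Among those 32 genes the motif was in 3 of the 4 called higher, 4 of the 5 called lower and 16 of the 23 not called. The related HIF core GCGTG was in 21 of the 32, against 35.15% of genes. A palindromic element of the glucocorticoid receptor, written as GNACA and TGTNC set 3 bases apart, was in 0 of the 32 windows and in 0.54% of genes. A match is a string of letters and shows no binding, and its absence concerns these windows only.

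Dexamethasone was followed by small and opposite changes within the set. Bnip3, Mxi1, P4ha2 and the enzyme gene Gpi1 were higher, and the lactate transporter gene Slc16a1, the enzyme genes Pgam1, Ldha and Tpi1, and the prolyl hydroxylase gene Egln3 were lower. In all, 9 of the 35 tested members were called, 4 higher and 5 lower, or 25.7%, where 15.1% of all 14715 rows were called, 9.04% higher and 6.03% lower. A gene is called here when its adjusted p in limma is below 0.05. Called log2 fold changes (dexamethasone minus vehicle) ran between -0.25 and 0.26. The median over the 35 members was -0.04, and over all tested rows -0.0029. The groups did not overlap in 9 members, against 20.7% of all rows. Fewer cells of a type and less RNA per cell cannot be told apart in these whole-tissue values.

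**Figure D1:**
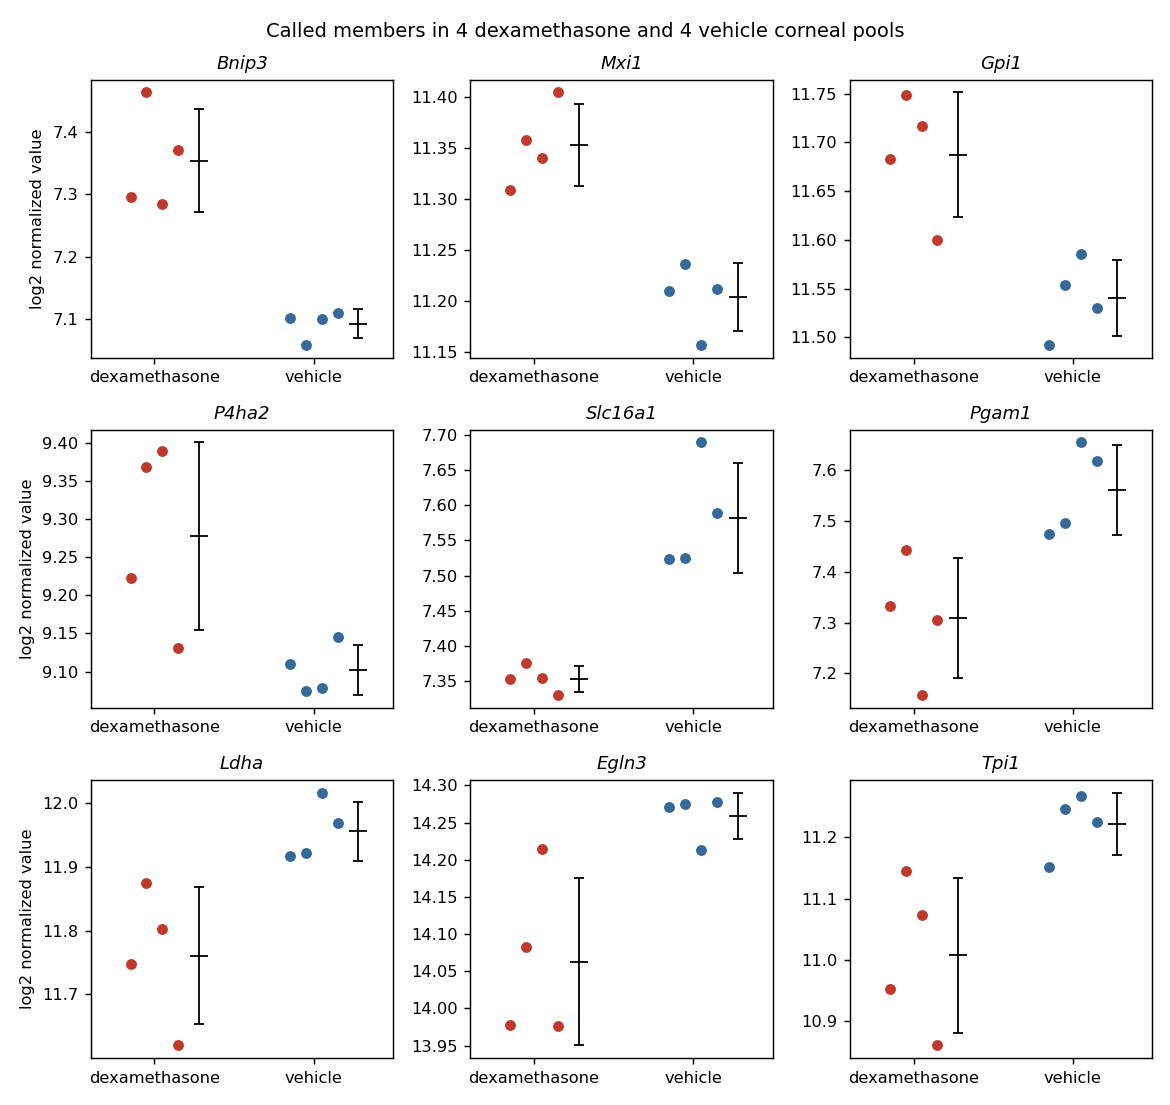
Log2 normalized values of the 9 called members in 4 dexamethasone libraries (left, red) and 4 vehicle libraries (right, blue), with points in replicate order and bars for mean ± SD (n = 4); each panel has its own vertical range. Bnip3, Mxi1, Gpi1 and P4ha2 were higher after dexamethasone, and the groups overlap only in P4ha2 and Egln3.

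Among the transporters, Slc16a1 was lower and the other two did not pass the test. Slc16a1 (Entrez 20501; mm9 chromosome 3, 104442591 to 104462385), which encodes a transporter of lactate and other monocarboxylates, stood at 7.35, 7.38, 7.35 and 7.33 in the dexamethasone libraries, against 7.52, 7.53, 7.69 and 7.59 in the vehicle libraries. Its highest dexamethasone library lay below its lowest vehicle library. The log2 fold change was -0.23 (SE 0.04, adjusted p = 0.00359, limma), or 1.17-fold lower. It was called in all 19 alternative analyses, with adjusted p between 0.00174 and 0.0145. Slc16a3, a second lactate transporter gene, was 6.46, 6.57, 6.56 and 6.33 after dexamethasone, against 6.42, 6.43, 6.44 and 6.39 after vehicle, and the groups overlapped. Slc2a1, the gene of the main glucose transporter of many cells, was 11.43, 11.38, 11.42 and 11.26 after dexamethasone, against 11.27, 11.29, 11.53 and 11.31 after vehicle. Their log2 fold changes were 0.06 (95% interval -0.05 to 0.17) and 0.02 (-0.11 to 0.15).

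Of the 13 tested enzyme genes, 1 rose, 3 fell and 9 were not called, or 30.8% called against 15.1% of all rows. Gpi1 (Entrez 14751; chromosome 7, 34987141 to 35015308) encodes the isomerase that makes fructose-6-phosphate. It stood at 11.68, 11.75, 11.72 and 11.60 in dexamethasone libraries, against 11.49, 11.55, 11.59 and 11.53 in vehicle libraries. All 4 dexamethasone values were the higher ones, and the log2 fold change was 0.15 (SE 0.04, adjusted p = 0.0179, limma). Gpi1 was not called without vehicle replicate 1, without vehicle replicate 4 or with a term for the level of the lowest rows (adjusted p over the alternatives 0.00668 to 0.130).

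The fallers serve steps after that of Gpi1. Tpi1 (Entrez 21991; chromosome 6, 124760604 to 124764314), the gene of triosephosphate isomerase, was 10.95, 11.14, 11.07 and 10.86 after dexamethasone, against 11.15, 11.25, 11.27 and 11.22 after vehicle. Dexamethasone replicate 2 and vehicle replicate 1 were less than 0.01 apart. Its log2 fold change was -0.21 (SE 0.05, adjusted p = 0.0226, limma), and the call was lost in 5 of the 19 alternatives: without dexamethasone replicate 1 or 4, without vehicle replicate 2 or 4, and without dexamethasone 1 and vehicle 3 together (adjusted p over all alternatives 0.00801 to 0.0680). Pgam1 (Entrez 18648; chromosome 19, 41986361 to 41993154), the gene of a phosphoglycerate mutase, was 7.33, 7.44, 7.16 and 7.31 after dexamethasone, against 7.48, 7.50, 7.66 and 7.62 after vehicle. The groups did not overlap, and dexamethasone replicate 3 was the lowest. The log2 fold change of Pgam1 was -0.25 (SE 0.06, adjusted p = 0.0180, limma). The call was lost with a replicate block, without vehicle replicate 4 and with the term for the lowest rows (adjusted p 0.0103 to 0.0592). Ldha (Entrez 16828; chromosome 7, 54096845 to 54110997), the gene of the lactate dehydrogenase subunit that favours lactate formation, was 11.75, 11.88, 11.80 and 11.62 after dexamethasone, against 11.92, 11.92, 12.02 and 11.97 after vehicle. The groups did not overlap, and the log2 fold change was -0.20 (SE 0.05, adjusted p = 0.0194, limma), or 1.15-fold lower. Ldha was not called without vehicle replicate 4 or without dexamethasone 1 and vehicle 3 together (adjusted p 0.00880 to 0.0576).

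The other tested enzyme genes of the set did not pass the test. The hexokinase genes Hk1 and Hk2 had log2 fold changes of -0.01 (95% interval -0.08 to 0.06) and -0.11 (-0.30 to 0.07). Those of the phosphofructokinase subunit genes Pfkl, Pfkp and Pfkm were 0.002, -0.03 and -0.05, and those of the aldolase genes Aldoa and Aldoc were -0.01 and -0.04. Pgk1, which encodes the first ATP-forming kinase of the pathway, had -0.08 (-0.19 to 0.02). Gapdh was 7.65, 7.61, 6.85 and 7.47 after dexamethasone, against 7.51, 7.53, 7.71 and 7.55 after vehicle. Dexamethasone replicate 3 stood below the other 7 libraries, and the interval of the Gapdh difference was the widest of the enzyme genes, -0.49 to 0.13. The 3 enzyme regulators were also not called. Pfkfb3 and Pfkfb4, whose products set the level of the phosphofructokinase activator fructose-2,6-bisphosphate, had -0.04 (-0.11 to 0.03) and -0.04 (-0.11 to 0.03). Pdk1, the gene of a kinase that inhibits pyruvate dehydrogenase, had -0.0029 (-0.11 to 0.10).

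**Figure D2:**
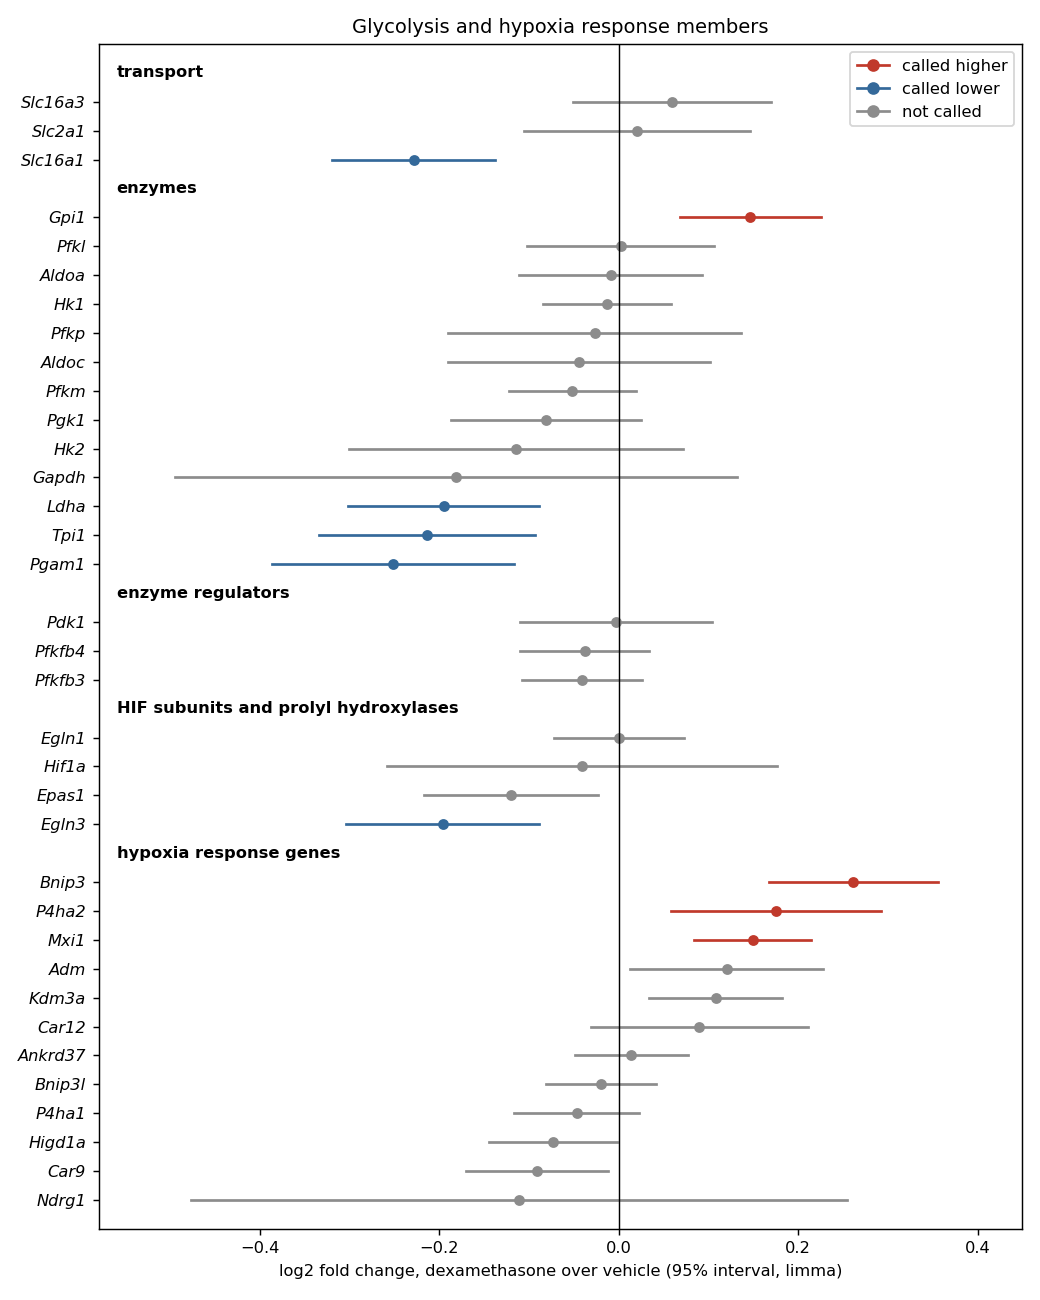
Log2 fold change, dexamethasone over vehicle, of the 35 tested members with 95% intervals from limma (n = 4 libraries per group), grouped by role. Red marks genes called higher, blue genes called lower and grey genes not called. Of the 13 enzyme genes 11 lie below 0, against 7583 of all 14715 tested rows, and 3 were called lower. Among the 11, Hk1, Pfkp, Aldoa, Aldoc and Gapdh changed sign in at least 1 alternative analysis. The 3 risers among the hypoxia response genes stand at 0.15 to 0.26.

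Some enzyme genes share long stretches of sequence with other places in the mm9 genome, and how reads with several matches were counted is not given in the sources used here. Of the 75-base windows of the transcript, 91.38% were found elsewhere for Pgk1, 88.9% for Pgam1, 85.36% for Gapdh and 65.44% for Eno1. Bnip3 had 42.98%, Bnip3l 26.83%, Gpi1 17.83%, Higd1a 14.23% and Tpi1 12.52%. Ldha had 7.15% and Aldoa 1.49%, and the other members had at most 0.22%. With shorter windows of 32 bases the shares were 51.47% for Ldha and 38.74% for Aldoa. The values of these genes are therefore uncertain as measures of the named gene. Among the 27 members under 10%, 2 were called higher (Mxi1 and P4ha2) and 3 lower (Slc16a1, Ldha and Egln3), or 18.5%, near the 15.1% of all rows. In dexamethasone replicate 3, the library with the lowest Gapdh and Pgam1, Eno1 was at 2.40, against 2.11 to 2.12 in the other dexamethasone libraries and 2.09 to 2.12 in the vehicle libraries. The part of shared sequence in these differences was not tested.

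**Figure D3:**
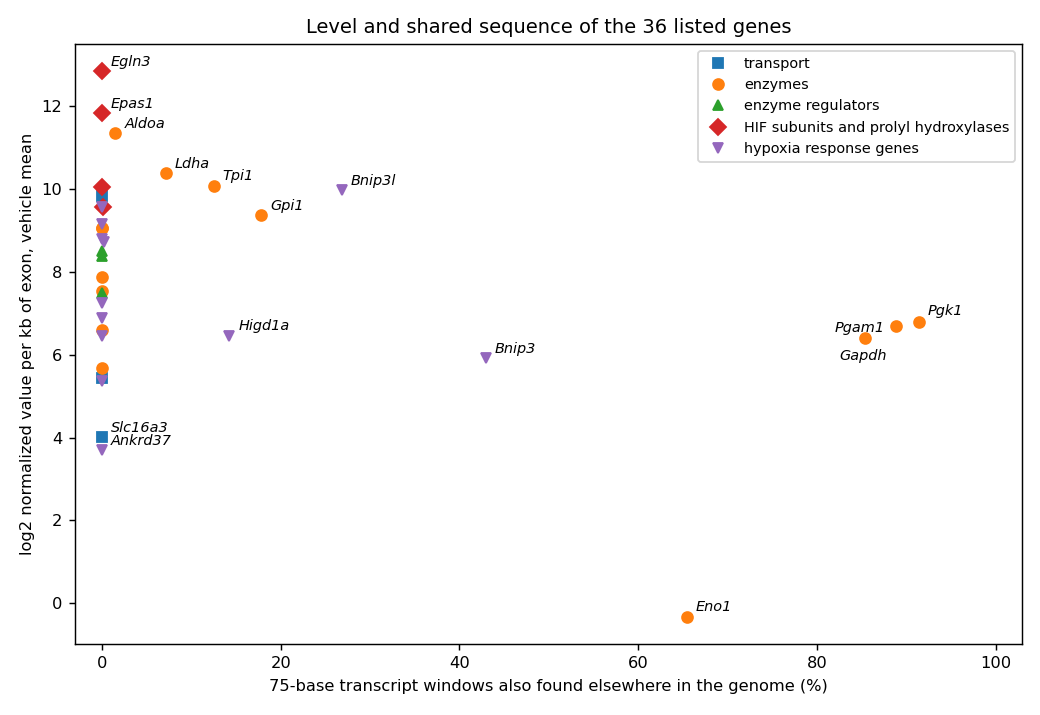
Mean log2 normalized value per kb of exon in the 4 vehicle libraries against the share of 75-base transcript windows found elsewhere in mm9, for the 36 listed genes by role. Pgk1, Pgam1, Gapdh and Eno1 have 65.44% to 91.38% of windows elsewhere, and Egln3 has none and the highest level.

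Per kb of exon, the prolyl hydroxylase gene Egln3 had the highest level of the set, a log2 value of 12.65 ± 0.11 after dexamethasone and 12.85 ± 0.03 after vehicle (SD, n = 4 each). Epas1, the gene of a HIF alpha subunit, followed at 11.72 ± 0.07 after dexamethasone and 11.84 ± 0.07 after vehicle, and the aldolase gene Aldoa at 11.35 ± 0.09 after dexamethasone and 11.35 ± 0.06 after vehicle. Ldha came next in vehicle corneas, at 10.38 per kb. Tpi1, Hif1a, Bnip3l and Slc2a1 lay close together between 9.84 and 10.08 per kb in vehicle corneas, with steps between neighbours no larger than 0.14, while the SD of Hif1a was 0.19. The lowest of the 35 tested members were Slc16a3 at 4.01 and Ankrd37 at 3.70 per kb in vehicle corneas, and the untested Eno1 was at -0.32 per kb. Eno1, Gapdh, Pgam1 and Pgk1 had 65.44% to 91.38% of their 75-base windows elsewhere. Their levels, and so their places in this order, are uncertain. The order also depends on the length taken, here the union of all annotated exons of a gene. For Aldoa this was 2754 bases, against 1549 bases in the transcript used for the windows. For Epas1 both were 5309 bases, so the order of Aldoa and Epas1 is not settled.

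Among the HIF subunits and prolyl hydroxylases, Egln3 fell and the other 3 were not called, or 25% called against 15.1% of all rows. Egln3 (Entrez 112407; chromosome 12, 55279968 to 55304847) was 13.98, 14.08, 14.21 and 13.98 after dexamethasone, against 14.27, 14.28, 14.21 and 14.28 after vehicle. Dexamethasone replicate 3 and vehicle replicate 3 met at 14.21, so that the groups overlapped there. The log2 fold change of Egln3 was -0.20 (SE 0.05, adjusted p = 0.0202, limma), and it was not called without dexamethasone replicate 4 or without vehicle replicate 1, 2 or 4 (adjusted p over the alternatives 0.00180 to 0.0630). Epas1 was 14.10, 14.06, 14.14 and 14.22 after dexamethasone, against 14.30, 14.27, 14.14 and 14.28 after vehicle, and vehicle replicate 3 lay inside the dexamethasone range. Its log2 fold change of -0.12 did not pass (adjusted p = 0.0926, limma). Epas1 was called lower without vehicle replicate 3, without dexamethasone 1 and vehicle 3 together, and with library quality weights (adjusted p over the alternatives 0.0196 to 0.328). Hif1a, the gene of the other main alpha subunit, was 12.82, 12.42, 12.57 and 12.47 after dexamethasone, against 12.56, 12.46, 12.89 and 12.53 after vehicle, a log2 fold change of -0.04 (-0.26 to 0.18). Egln1, the gene of the main HIF hydroxylase of most cells, had a log2 fold change of 0.0003 (-0.07 to 0.07).

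Other genes of the HIF pathway changed beside them. Of 14 tested genes on a list of partners and inhibitors, 4 rose, 1 fell and 9 were not called. That was 35.7% called, against 15.1% of all rows. Hif3a (Entrez 53417; chromosome 7, 17616856 to 17647776) was 7.79, 7.74, 7.97 and 7.75 after dexamethasone, against 7.31, 7.20, 7.29 and 7.18 after vehicle. The groups were well apart, and the log2 fold change was 0.57 (SE 0.05, adjusted p = 5.02e-05, limma), or 1.48-fold higher. A splice form of Hif3a that inhibits HIF is known from the mouse corneal epithelium, and the gene-level values do not separate splice forms. Egln2, the third prolyl hydroxylase gene, was 10.52, 10.60, 10.60 and 10.57 after dexamethasone, against 10.36, 10.41, 10.41 and 10.38 after vehicle (log2 fold change 0.18, SE 0.03, adjusted p = 0.00154, limma). Egln2 thus rose while Egln3 fell, and the difference between the 2 changes was not tested. Cited2, whose product competes with HIF for the coactivators p300 and CBP, rose by 0.21 (adjusted p = 0.00359, limma), and its relative Cited4 by 0.15 (adjusted p = 0.0343, limma). Arnt2, the gene of a HIF partner, was 6.97, 6.96, 7.09 and 6.90 after dexamethasone, against 7.23, 7.21, 7.30 and 7.22 after vehicle, with no overlap (log2 fold change -0.26, adjusted p = 0.00239, limma). Hif3a, Egln2, Cited2 and Arnt2 were called in all 19 alternatives, and Cited4 in 12 of them.

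**Figure D4:**
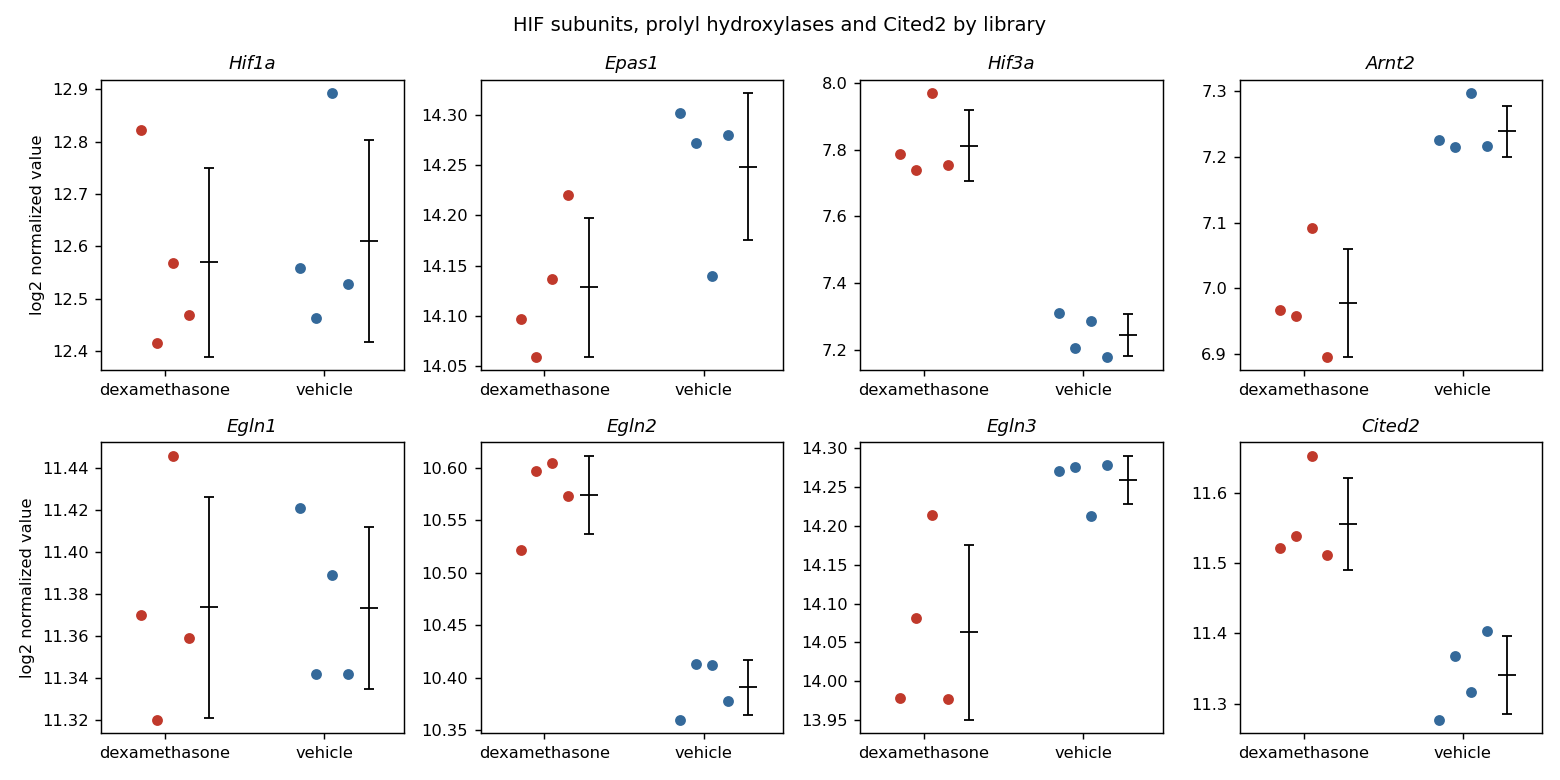
Log2 normalized values of HIF subunit, partner, prolyl hydroxylase and Cited2 genes in 4 dexamethasone libraries (left, red) and 4 vehicle libraries (right, blue), with bars for mean ± SD (n = 4) and a vertical range for each panel. Hif3a, Egln2 and Cited2 are higher and Arnt2 lower in all dexamethasone libraries than in any vehicle library, Egln3 is lower with an overlap at 14.21, and Hif1a and Egln1 overlap widely.

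Of the 12 hypoxia response genes, 3 rose, none fell in limma at an adjusted p of 0.05, and 9 were not called. That was 25% called, against 15.1% of all rows. Bnip3 (Entrez 12176; chromosome 7, 146082519 to 146101202), which encodes a mitochondrial protein of mitophagy and cell death, had the largest rise of the 35 members. It stood at 7.30, 7.46, 7.28 and 7.37 after dexamethasone, against 7.10, 7.06, 7.10 and 7.11 after vehicle. No dexamethasone library reached the vehicle range, and the log2 fold change was 0.26 (SE 0.04, adjusted p = 0.00193, limma), or 1.20-fold. Its relative Bnip3l had -0.02 (-0.08 to 0.04). Mxi1 (Entrez 17859; chromosome 19, 53384996 to 53450300), the gene of an antagonist of Myc, was 11.31, 11.36, 11.34 and 11.40 after dexamethasone, against 11.21, 11.24, 11.16 and 11.21 after vehicle. The groups did not overlap, and the log2 fold change was 0.15 (SE 0.03, adjusted p = 0.00629, limma). Bnip3 and Mxi1 were called in all 19 alternatives, with adjusted p up to 0.0273 and 0.0458. P4ha2 (Entrez 18452; chromosome 11, 53913597 to 53945167), the gene of a collagen prolyl hydroxylase subunit, was 9.22, 9.37, 9.39 and 9.13 after dexamethasone, against 9.11, 9.07, 9.08 and 9.15 after vehicle. Its dexamethasone replicate 4 lay below vehicle replicate 4. The log2 fold change was 0.18 (SE 0.05, adjusted p = 0.0479, limma), and the call was lost in 12 of the 19 alternatives (adjusted p 0.0109 to 0.308).

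Kdm3a, a histone demethylase gene, was just outside the threshold. Its values were 11.51, 11.55, 11.65 and 11.59 after dexamethasone, against 11.50, 11.45, 11.49 and 11.43 after vehicle. The groups did not overlap (log2 fold change 0.11, adjusted p = 0.0521, limma), and Kdm3a was called higher in 5 of the 19 alternatives. Higd1a, a gene of a mitochondrial protein, also had groups that did not overlap, 7.26 to 7.31 after dexamethasone and 7.33 to 7.41 after vehicle, without passing (adjusted p = 0.158, limma). Adm, which encodes the vasodilator adrenomedullin, had a log2 fold change of 0.12 (0.01 to 0.23, adjusted p = 0.125, limma). The carbonic anhydrase genes Car9 and Car12 had -0.09 (adjusted p = 0.115, limma) and 0.09 (adjusted p = 0.309, limma). Ankrd37 had 0.01 (-0.05 to 0.08), P4ha1 -0.05 (-0.12 to 0.02) and Ndrg1, a stress and differentiation gene, -0.11 (-0.48 to 0.25). The interval of Ndrg1 was the widest of this role.

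Whether members of the same kind changed differently was tested by the difference of their log2 values within each library, for 11 pairs. In 5 pairs the groups did not overlap, and each gave p = 0.0286, the smallest that an exact two-sided permutation test of 4 against 4 libraries allows. After adjustment over the 11 pairs these stood at adjusted p = 0.0629 (exact permutation test), so that none passed. The level of Slc16a3 minus that of Slc16a1 was -0.87 ± 0.10 after dexamethasone and -1.16 ± 0.07 after vehicle (SD, n = 4 each), a difference of 0.29. For Bnip3 minus Bnip3l the difference was 0.28, for P4ha2 minus P4ha1 0.22, for Egln3 minus Egln1 -0.20 and for Car12 minus Car9 0.18. The other 6 pairs, which compared hexokinase, phosphofructokinase, Pfkfb, aldolase and HIF alpha genes, had overlapping groups and differences between -0.10 and 0.00.

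Other genes of the same pathways were read from lists that do not contain the members. Counted once, 95 were tested, of which 19 rose, 4 fell and 72 were not called, or 24.2% called, where all 14715 rows had 15.1% called, 9.04% higher and 6.03% lower. They had a median log2 fold change of 0.02. Of 34 other glycolysis and pyruvate genes, 5 rose and 1 fell, or 17.6%, near the 15.1% of all rows. Pdk4, the gene of a kinase that inhibits pyruvate dehydrogenase and a known glucocorticoid target, was 6.75, 6.82, 6.71 and 6.66 after dexamethasone, against 6.48, 6.31, 6.17 and 6.20 after vehicle. The groups did not overlap (log2 fold change 0.44, SE 0.06, adjusted p = 0.000870, limma). The further risers were Pdk2 (0.18), the phosphofructokinase regulator gene Pfkfb2 (0.16), the glucose transporter gene Slc2a3 (0.12) and Pdha1 (0.10), which encodes a subunit of pyruvate dehydrogenase itself. Those 4 lost the call in 5 to 9 alternatives each. The faller, 9630033F20Rik (-0.12), is listed by RefSeq as a synonym of Tigar, a gene of a fructose-bisphosphatase that lowers glycolysis, and it lost the call in 8. Pkm, which encodes the last enzyme of glycolysis, was not called (0.02, adjusted p = 0.848, limma).

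Of 11 tested pentose phosphate and gluconeogenesis genes, 3 rose and none fell in limma at an adjusted p of 0.05. That was 27.3% called, against 15.1% of all rows. H6pd, which encodes the glucose-6-phosphate dehydrogenase of the endoplasmic reticulum, was 11.11, 11.13, 11.28 and 11.18 after dexamethasone, against 10.79, 10.78, 10.66 and 10.73 after vehicle. The gap between the groups was wider than either group (log2 fold change 0.44, SE 0.04, adjusted p = 4.83e-05, limma). G6pdx, its cytosolic counterpart, rose by 0.10 (adjusted p = 0.0449, limma), and Pcx, the pyruvate carboxylase gene, by 0.08 (adjusted p = 0.0468, limma). G6pdx and Pcx lost the call in 12 and 15 of the 19 alternatives.

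Of 39 other tested hypoxia response genes, 9 rose and 2 fell, or 28.2% called against 15.1% of all rows. The risers include Hif3a and Pfkfb2, which were already counted as risers of the HIF pathway list and the other glycolysis list. Ddit4, an inhibitor of mTORC1 signalling induced both by low oxygen and by glucocorticoids, was 10.99, 10.96, 11.34 and 10.96 after dexamethasone, against 9.69, 9.64, 10.10 and 9.64 after vehicle. In both groups replicate 3 was the highest, and the groups were well apart (log2 fold change 1.30, SE 0.11, adjusted p = 2.01e-05, limma). Stc2, which encodes a secreted glycoprotein, rose by 0.53 (adjusted p = 5.16e-05, limma). Plod2, the gene of a collagen lysyl hydroxylase, rose by 0.20, and Nfil3, a transcription factor gene, by 0.18. Ppp1r3c, the gene of a glycogen-targeting subunit of protein phosphatase, was 12.52, 12.66, 12.68 and 12.51 after dexamethasone, against 12.81, 12.90, 12.89 and 12.85 after vehicle, with no overlap (log2 fold change -0.27, adjusted p = 0.00157, limma). Vegfa, which encodes the vascular growth factor, was not called (-0.07, adjusted p = 0.880, limma).

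Some members varied within both groups along with dexamethasone replicate 1 and vehicle replicate 3. In 8 members, Slc2a1, Hk1, Hk2, Gapdh, Pgk1, Pfkfb4, Hif1a and Ndrg1, these were the highest library of their group. The lead of dexamethasone replicate 1 was small in Slc2a1, Hk1, Pgk1 and Pfkfb4. Pgk1, for example, was 7.914 there and 7.912 in dexamethasone replicate 3. Ndrg1 was 12.43 in dexamethasone replicate 1 and 12.03 to 12.20 in the other dexamethasone libraries, and 12.93 in vehicle replicate 3 and 12.08 to 12.10 in the other vehicle libraries. Vegfa behaved alike, at 10.48 in that dexamethasone library and 10.66 in that vehicle library, against 9.62 to 9.87 in the other 6. Krt16 was highest in the same 2 libraries. Vehicle replicate 3 was the highest of its group for 17 of the 35 members, and dexamethasone replicate 4 the lowest of its group for 18. Dexamethasone replicate 3 was the highest of its group for 13 members, and dexamethasone replicate 1 for 10. The same counts were not made over all rows. Without both libraries 4 members were called higher and 4 lower: Tpi1, Ldha and P4ha2 were not called, Epas1 was called lower and Kdm3a higher.

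**Figure D5:**
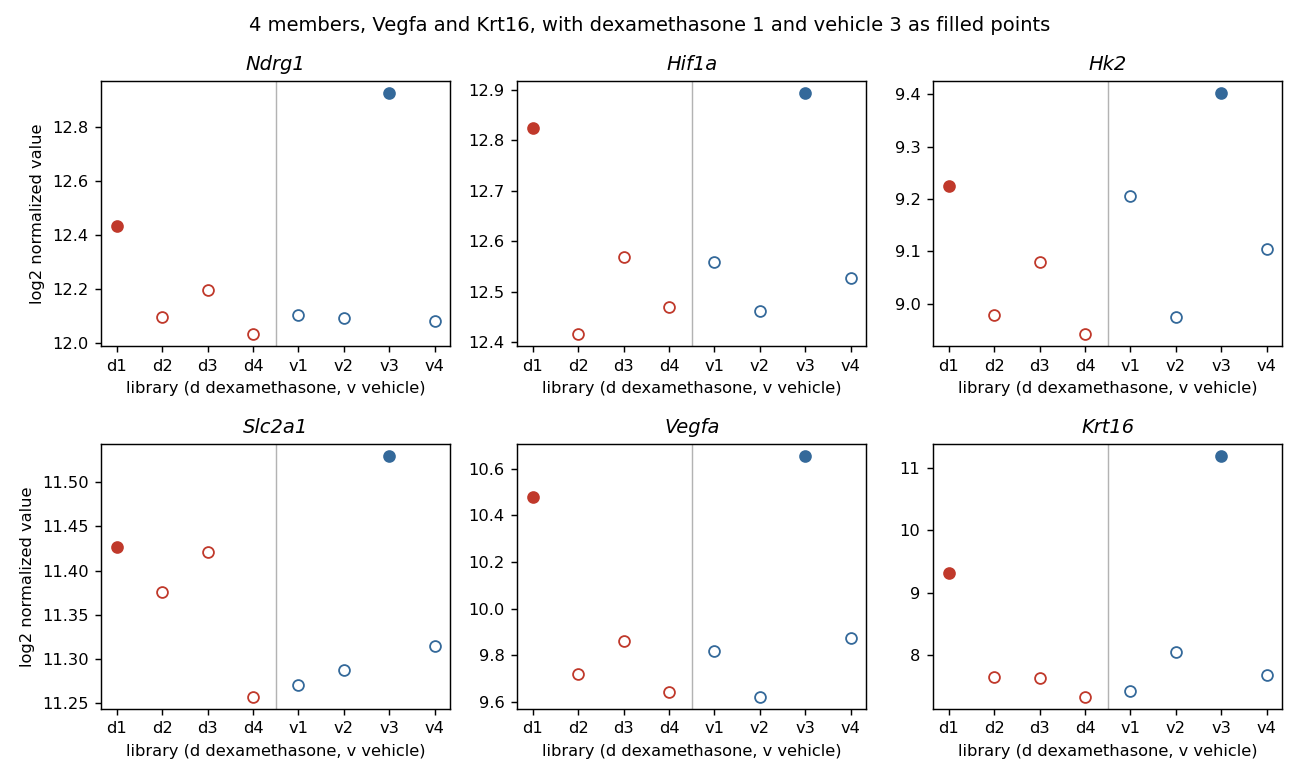
Log2 normalized values of Ndrg1, Hif1a, Hk2, Slc2a1, Vegfa and Krt16 in each library (d, dexamethasone, red; v, vehicle, blue), with dexamethasone replicate 1 and vehicle replicate 3 filled and a vertical range for each panel. The filled point is the highest of its group in each of the 6 panels, though only by a little for Slc2a1 after dexamethasone.

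Markers of other cells moved in part with the groups. The log2 of the summed unlogged values of 5 corneal endothelium markers was 15.81 to 15.86 after dexamethasone and 15.67 to 15.74 after vehicle. Of the 5, 1 was called higher and 1 lower. The same sum of 6 blood vessel markers was 10.79 to 10.90 after dexamethasone and 10.68 to 10.77 after vehicle, with 1 of 6 called higher. Such a sum mostly follows its most abundant gene, in the vessel list Kdr with a mean of 10.13. No marker of these 2 lists was at 0. The sum of 9 epithelial markers was 20.79 to 20.94 after dexamethasone and 20.90 to 20.95 after vehicle, with 1 called higher and 1 lower. Of 7 stromal markers 2 were called lower, and of 5 tested immune markers 1 was called lower (Lyz2, a gene of myeloid cells, log2 fold change -0.23, adjusted p = 0.0187, limma). The sums of the stromal, immune and other 6 marker lists overlapped between the groups. Over all rows 15.1% were called. The part of the markers in the changes of the members was not tested.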

How the data were processed

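RNA sequencing libraries (75 bp paired reads) from 4 dexamethasone and 4 vehicle corneal pools were used. The authors deposited 1 table of log2 normalized values; mm9, Bowtie2, HTSeq and DESeq2 are named in the submitters' processing notes. Their versions, the annotation, the strandedness and the kind of transformation are not stated there. The deposited log2 values look shrunken: Ankrd37 had an SD of 0.03 in vehicle, where a Poisson count at its level would have 0.338. Differences of low genes are therefore understated, and whole reads could not be recovered, so no count test was run. Small SDs were not confined to low genes. Slc16a1 had 0.018 at a mean of 7.35 after dexamethasone, and Bnip3 0.023 at 7.09 in vehicle. All fold changes and SEs given here are on this scale, and how far those of higher genes are shrunken was not tested.

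Members, lists and tests were chosen with earlier results of these data known. Rows with a mean of at least 3 were fitted with limma 3.58.1 in R 4.3.3 (group, variance trend, two-sided, Benjamini-Hochberg over 14715 rows). Pairs were tested by exact permutation in SciPy 1.17.1. All members are described, with up to 6 called genes of each further list by adjusted p, and Ddit4, Vegfa and Pdk4. Pkm and the markers Krt12, Krt16, Myh4, Lyz2, Alas2 and Kdr were added after their values were seen. Gene coordinates are GENCODE vM1 on NCBIM37 (mm9), matched by symbol. Levels per kb divide by the length of the union of all annotated exons of a gene. Transcript windows of 75 bases, and of 32 bases, were searched in NCBIM37. The fit was checked on simulated data. The alternatives were a replicate block, other filters, a pseudocount of 8, quantile normalization, median centring, no trend, library quality weights, robust moderation, dropping each library in turn, leaving out dexamethasone 1 and vehicle 3, and, chosen after seeing the data, a term for the level of the lowest 694 rows and the members with under 10% of windows elsewhere.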

Additional observations from a re-analysis of the deposited data

Results flagged for a closer look

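In 9 of 114 sets of 4 libraries, 1 library stood apart from the other 3 of its group by Dixon's 95% criterion on the gap as a share of the group's range; 1 set in 20, or 5.7 sets, would do so by chance. Of the 9, 5 lay in vehicle replicate 3, 3 in dexamethasone replicate 3 and 1 in vehicle replicate 2.

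In vehicle replicate 3 Ndrg1 stood at 12.93, and the rest of its group at 12.08 to 12.10 (gap 0.973 of the range). Slc2a1 was 11.53 there, against 11.27 to 11.31 (0.831). Egln3 was lowest in vehicle replicate 3, at 14.21 against 14.27 to 14.28 (0.891). Arnt2 was 7.30 there, against 7.21 to 7.23 (0.870). Ddit4 was 11.34 in dexamethasone replicate 3, against 10.96 to 10.99 in the other dexamethasone libraries (0.929). In vehicle replicate 3 Ddit4 stood at 10.10, and the other vehicle libraries at 9.64 to 9.69 (0.872). Pdha1 was 12.66 in dexamethasone replicate 3, against 12.61 in the other 3 (0.948). Eno1, below the minimum for testing, was 2.40 there, against 2.11 to 2.12 (0.953). Ankrd37 was lowest in vehicle replicate 2, at 4.14 against 4.20 to 4.21 (0.873).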

How the results depend on the processing

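Of the 9 called members, Bnip3, Slc16a1 and Mxi1 were called in all 19 alternatives, and none of the 9 changed sign; of the 26 uncalled members, Epas1 and Kdm3a were called in some alternatives and 12 changed sign in at least 1. Leaving out 1 library gave 2 to 4 members called higher and 1 to 6 called lower, with 918 to 1302 of all rows higher and 493 to 829 lower, and 9 to 18 of the other pathway genes higher and 2 to 6 lower. The lowest counts came without vehicle replicate 4, where 2 members were higher and 1 (Slc16a1) lower; without dexamethasone replicate 4, 547 of all rows were lower. With the term for the level of the lowest rows, 751 of all rows were higher and 418 lower, 2 members were higher and 4 lower, and 9 other pathway genes were higher and 2 lower. Library quality weights gave 8 other pathway genes lower. The 27 members with under 10% of windows elsewhere held 2 higher and 3 lower, from fewer genes. The cause of the other shifts was not tested. Quantile normalization gave 1191 rows higher and 1024 lower. The median over rows of the shift in log2 fold change was 0.003. The median log2 fold change of all rows was then -0.0046, against -0.0029 in the main fit.

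The replicate numbers of the labels are not said to pair pools. Deviations of same-numbered libraries correlated at -0.31, 0.19, -0.14 and 0.14, so the numbers were not taken as pairs. A replicate block gave 3 members higher and 4 lower, and 1053 of all rows higher and 622 lower.

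The labels give more than 40000000 reads per sample but no depth of single libraries, so no counting error is given. For the uncalled members the intervals limit the size of a difference on this shrunken scale only, and those of Gapdh, Ndrg1 and Hif1a are wide. Each group had 4 pools at 1 time, so later responses and the spread between single mice are not seen.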
